A study of Mus musculus with 2756 samples.

Results

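AP.late is 1 of the authors' clusters of apical progenitors, the dividing cells that line the ventricle of the embryonic neocortex, and it was compared with the other apical progenitors of the same injection day. The study labelled cells of the embryonic mouse neocortex with FlashTag, a dye injected into the ventricle that is taken up by cells in division at its wall, and sequenced the RNA of single labelled cells. The cells used here came from embryos injected at embryonic day 13, 14 or 15 (E13, E14, E15) and were collected 1 h later. Their labels place them in clusters whose names begin with AP. Counts were summed, within each injection day, over the AP.late cells and over the AP.mid1 and AP.mid2 cells, called other AP below. Cells of the cluster AP.early were left out, which were 8 at E13, 6 at E14 and 0 at E15. The result was 6 sums, paired by day. Together they held 520 of the 2756 cells of the series, of which 363 were other AP and the rest AP.late. At E13 there were 15 AP.late and 178 other AP cells, and at E14 18 AP.late and 96 other AP cells. At E15 AP.late made up 58.2% of 213 AP cells and the other AP cells numbered 89. AP.mid2 took 52, 33 and 62 of the other AP cells at E13, E14 and E15, and AP.mid1 the remainder, which was 63 at E14 and 27 at E15. All groups shared the tissue, the putative S1 cortex, and the sort, which kept the brightest 5% of labelled cells. The labels name no strain, genotype, animal or litter, so each sum is 1 sample and may pool several embryos.

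Apical progenitors, also called apical radial glia, move their nucleus with the cell cycle and divide at the ventricular surface, which is where FlashTag enters them. Early in neurogenesis they produce neurons of the deep layers, and later neurons of the upper layers and then glia. A division either renews the progenitor or yields a basal progenitor or a neuron, and the proneural factor Neurog2 takes part in that step. Genes of G2 and M phase, such as cyclin B1 and the kinetochore and spindle proteins, are transcribed shortly before division and their transcripts decay after it. A contrast between groups of apical progenitors can therefore hold differences of developmental stage, of commitment and of cell cycle position at once.

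The 6 sums held 6.35, 6.50 and 36.4 M counts for AP.late and 59.2, 37.4 and 28.0 M counts for other AP at E13, E14 and E15. The median cell had 393365, 350246 and 298753 counts in AP.late and 330630, 365302.5 and 297528 in other AP. The median mitochondrial share was 5.4, 4.15 and 4.95% in AP.late and 5.4, 5.55 and 4.8% in other AP. A run code in the cell titles, whose meaning is not given, was the same for both groups of a day. It was shared by E13 and E15 and differed at E14. The sums of AP.late at E13 and E14 rest on few cells and are less precise than the others. Because the authors built the clusters from the expression of these same cells, a test between clusters does not show that they differ. It describes which genes differed in the same way over 3 injection days.

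The cells of both groups carried the markers of apical progenitors. The 18 listed core genes, such as Pax6, Sox2, Nes and Vim, summed to 6580, 6778 and 8235 CPM (counts per M of the scaled library size) in AP.late at E13, E14 and E15, against 5872, 6671 and 8407 CPM in other AP. The median log2 difference of the 18 genes was 0.14. In each day 4 of them were lower in AP.late and 1 higher, against 17.1% and 13.2% of all genes tested. Pax6, a transcription factor of cortical progenitors, had 497, 583 and 679 CPM in AP.late and 639, 601 and 616 CPM in other AP. The groups overlapped, and so they did for Vim, an intermediate filament of radial glia. Markers of several other cell types were at or near 0, or were not among the genes analysed here. No listed marker of oligodendrocyte precursors, Cajal-Retzius cells, cortical hem and choroid plexus, endothelium, pericytes and meninges or microglia passed the filter on low counts, and none of these lists summed to more than 16.1 CPM in any AP.late sum or 21.0 CPM in any other AP sum. These sums cover only the members among the genes analysed here. In the order of the lists, those were 2 of 6, 7 of 9, 1 of 10, 2 of 8, 4 of 8 and 3 of 9. Markers of young neurons were present, and summed to 496, 616 and 734 CPM in AP.late and 335, 631 and 738 CPM in other AP. The 7 red blood cell genes were not among the genes analysed here.

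Across 8683 genes that had at least 10 CPM in at least 3 of the 6 sums, no gene passed an adjusted p of 0.05 between AP.late and other AP (0%, edgeR quasi-likelihood test with injection day as a block and Benjamini-Hochberg adjustment). The lowest adjusted p in this edgeR fit was 0.0682. An unadjusted p under 0.05 was reached by 503 genes (5.79%), of which 178 were higher in AP.late (2.05%) and 325 lower (3.74%). In each of the 3 days, 1148 genes were higher in AP.late (13.2%) and 1486 lower (17.1%). The sums did not overlap for 510 genes that were higher in AP.late (5.87%) and 745 that were lower (8.58%). DESeq2 on the same sums called 39 genes higher (0.449%) and 202 lower (2.33%), and limma voom with sample weights called 72 higher and 77 lower (1.72% in all). The number of calls thus depended on the tool. With 2 residual degrees of freedom and a biological coefficient of variation of 69.3%, the edgeR test had little precision. The median log2 difference over all genes tested was -0.15, and the lists below are read against it. Values below are given for AP.late and for other AP at E13, E14 and E15 in that order of days.

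The genes with the smallest p were lower in AP.late, and most of them encode proteins of chromosome segregation. Ccnb1 (chr13:100778739-100786486), which encodes cyclin B1, the partner of the mitotic kinase Cdk1, had 23.0, 38.8 and 47.1 CPM in AP.late and 239, 291 and 390.3 CPM in other AP. Every AP.late sum lay below every other AP sum. Its mean was 36.3 ± 12.2 CPM in AP.late and 307 ± 76.99 CPM in other AP (SD over 3 days), and its log2 difference was -3.10 ± 0.35 (SE), with an adjusted p of 0.0682 in edgeR's quasi-likelihood test with Benjamini-Hochberg adjustment, short of the threshold. Cenpf (chr1:189640606-189688107), a protein of the outer kinetochore, had 112.3, 87.7 and 216 CPM in AP.late and 446, 513 and 1122 CPM in other AP, a log2 difference of -2.30 ± 0.26. Birc5 (chr11:117849237-117855743), survivin, a subunit of the chromosomal passenger complex that guides chromosome attachment, had 54.5, 28.4 and 45.2 CPM in AP.late and 315, 299.5 and 393 CPM in other AP, a log2 difference of -3.01 ± 0.35. Its groups were separate as well. Cdca8 (chr4:124918465-124936917), borealin, belongs to the same complex and had 12.5, 44.2 and 95.7 CPM in AP.late and 337, 354 and 716 CPM in other AP.

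The promoters of these 4 genes are shown because the group lay low together and because the CCAAT box, a motif bound by the factor NF-Y, is a known feature of promoters of mitotic genes. Each line holds the 150 bases before the transcript start used in the RefSeq promoter table (build GRCm38.p6), read 5′ to 3′ on the gene's strand, and capitals mark CCAAT or, where the box lies on the opposite strand, ATTGG. The windows are chr13:100786487-100786636 on the minus strand for Ccnb1, chr1:189688087-189688236 on the minus strand for Cenpf, chr11:117849087-117849236 on the plus strand for Birc5 and chr4:124936918-124937067 on the minus strand for Cdca8. For Cenpf that start lies inside the gene's outer end, so its window overlaps the gene span given above by a few bases.
Ccnb1: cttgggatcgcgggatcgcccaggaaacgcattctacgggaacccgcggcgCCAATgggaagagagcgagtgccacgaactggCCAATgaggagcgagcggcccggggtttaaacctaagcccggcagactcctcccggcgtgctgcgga
Cenpf: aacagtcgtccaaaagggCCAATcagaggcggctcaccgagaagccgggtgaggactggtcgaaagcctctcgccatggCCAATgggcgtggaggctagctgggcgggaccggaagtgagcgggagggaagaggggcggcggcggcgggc
Birc5: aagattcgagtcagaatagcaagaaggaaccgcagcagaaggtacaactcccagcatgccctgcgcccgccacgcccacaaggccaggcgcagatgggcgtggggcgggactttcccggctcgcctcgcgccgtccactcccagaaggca
Cdca8: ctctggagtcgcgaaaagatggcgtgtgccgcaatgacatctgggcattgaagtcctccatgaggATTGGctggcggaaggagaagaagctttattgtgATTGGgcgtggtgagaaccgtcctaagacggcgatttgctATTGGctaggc
The Ccnb1 and Cenpf windows hold 2 matches each, the Cdca8 window holds 3, and the Birc5 window holds 0. Counted from the transcript start of the table, the matches begin at -99 and -67 in Ccnb1, at -132 and -71 in Cenpf and at -85, -51 and -11 in Cdca8. Of the 26 genes in the list of G2 and M phase used below, 23 had a promoter in the RefSeq table by symbol, and 20 of these held at least 1 CCAAT on either strand (87%). Over all 32851 promoters of the table, 8047 held one in the same 150 bases (24.5%). At least 2 matches were found in 14 of the 23 and in 5.87% of all promoters. A match is a description of the letters and shows no binding.

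The next 4 genes by p followed the same order. Nusap1 (chr2:119618298-119650165), a microtubule-binding protein of the spindle, had 6.99, 3.29 and 28.3 CPM in AP.late and 193, 179.7 and 278 CPM in other AP, and its log2 difference of -4.58 ± 0.61 was the largest of the 8. Pttg1 (chr11:43420244-43427463), securin, which holds sister chromatids together by blocking separase, had 62.4, 127.99 and 291 CPM in AP.late and 703, 745 and 1073 CPM in other AP. Top2a (chr11:98992947-99024199), the topoisomerase that untangles replicated chromosomes, had 107.02, 81.8 and 95.9 CPM in AP.late and 395, 354 and 584 CPM in other AP. These genes lay below other AP in each day with no overlap. Arl6ip1 (chr7:118118890-118129625) encodes a protein that shapes the endoplasmic reticulum and is in none of the cell cycle lists used here. It had 169.1, 208 and 485 CPM in AP.late and 904, 794 and 1244 CPM in other AP, a log2 difference of -1.90 ± 0.28. The log2 differences of Pttg1 and Top2a were -2.63 ± 0.35 and -2.20 ± 0.30. Adjusted p-values of all 8 genes lay between 0.0682 and 0.106 in the edgeR quasi-likelihood test with Benjamini-Hochberg adjustment, so none passed, while DESeq2 and limma voom called all 8.

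**Figure D1:**
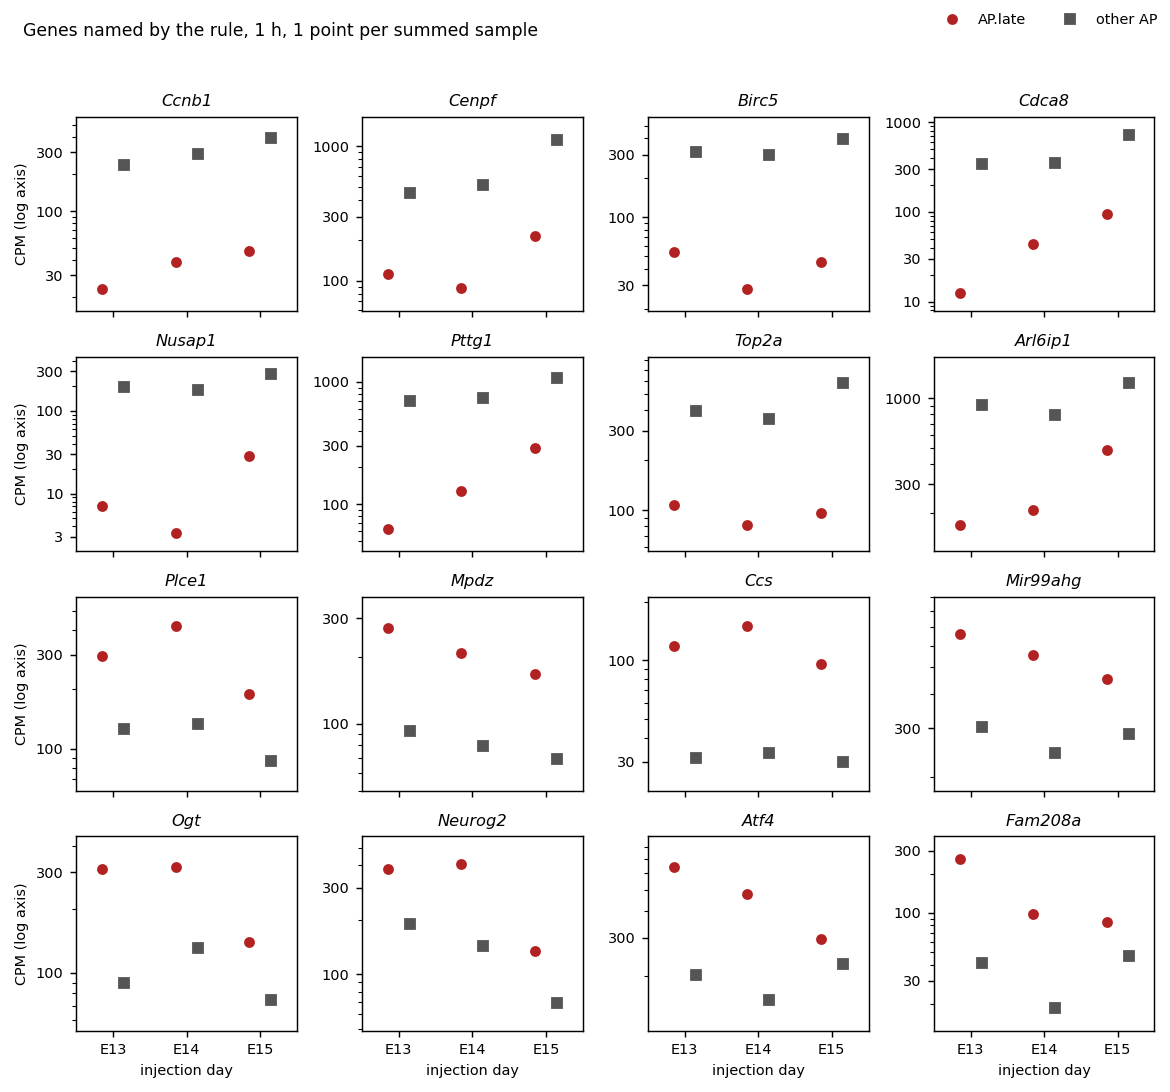
Level in CPM (log axis) of the 16 genes named by smallest p at 1 h, with 1 point per summed sample, injection day on the x axis, AP.late as circles and other AP as squares. In the first 8 panels each AP.late point lies below the other AP points of all days, and in 7 of the last 8 it lies higher than all of them, Neurog2 being the exception.

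The whole list of G2 and M phase genes lay lower in AP.late. All 26 members passed the filter, and 25 of them were lower in AP.late in each of the 3 days, where 17.1% of all genes were. The exception was Kif20b, a kinesin of the midzone, with 66.1, 3.14 and 24.5 CPM in AP.late and 39.4, 52.7 and 94.7 CPM in other AP. For 24 members the sums did not overlap, and 24 had an unadjusted p under 0.05, the 2 without being Kif20b and Aurkb, a kinase of the passenger complex. None passed the adjusted threshold in edgeR, 23 did in DESeq2 and 20 in limma voom. The median log2 difference was -2.74 over the list, and -2.42, -2.93 and -2.75 at E13, E14 and E15. Summed over the 26 genes, the level was 1219, 1424 and 1520 CPM in AP.late and 5133, 5164 and 9455 CPM in other AP. AP.late kept a similar level on the 3 days, whereas other AP was highest at E15, the day with the most AP.mid2 cells among them. In a sum, fewer cells with a transcript and less of it per cell cannot be told apart, so values per cell are given further on.

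Within other AP, the gap of AP.late to AP.mid2 was wider than that to AP.mid1. The 26 genes summed to 1219, 1424 and 1520 CPM in AP.late and to 11545, 11002 and 11616 CPM in AP.mid2, against 1895, 1910 and 2736 CPM in AP.mid1. Set against AP.mid2 alone, all 26 genes had an unadjusted p under 0.05 and a lower level in AP.late, and their median log2 difference was -3.42. Of 8639 genes tested in that comparison, 377 (4.36%) were lower and 227 (2.63%) higher at that p. Against AP.mid1 alone, 22 members could be tested, 5 were lower at an unadjusted p under 0.05, and the median was -0.83. There, 390 of 8508 genes (4.58%) were lower and 209 (2.46%) higher. The AP.late sums lay below those of both clusters on every day. Both comparisons share the AP.late sums, and the difference between them was not tested.

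Against AP.mid2, 22 genes passed the adjusted threshold (0.255%, edgeR quasi-likelihood test, Benjamini-Hochberg), all lower in AP.late, and against AP.mid1 no gene did (0%). The 22 were Ube2c, Dynll1, Birc5, Hmmr, Pttg1, Top2a, Cenpf, Nusap1, Tpx2, Smc2, Cdca8, Arl6ip1, Mki67, Aspm, Smc4, Tubb4b, Prc1, Ccnb1, Ckap2l, Arhgef39, Hmgb2 and Cks2, and 11 of them are in the list of G2 and M phase. Others among them serve division too, such as Smc2 and Smc4, subunits of condensin, and Prc1, which bundles microtubules of the central spindle. Mki67, the Ki-67 protein of cycling cells, had 127.98, 388 and 243 CPM in AP.late against 804, 1309 and 1366 CPM in AP.mid2. Its level in AP.mid1 was 299, 390.5 and 515 CPM. Hmgb2, a chromatin protein abundant in proliferating cells, had 248, 255 and 346 CPM in AP.late, 1213, 883 and 1145 CPM in AP.mid2, and 374, 307 and 600.1 CPM in AP.mid1. For both genes AP.mid2 stood above the other clusters in every day.

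Single cells showed the same order, with wide ranges. The summed level of the 26 genes per cell had a median of 979, 1113 and 1016 CPM in AP.late, 1381, 1186 and 2649 CPM in AP.mid1, and 9797, 8725 and 10644 CPM in AP.mid2. At E13 an AP.late cell had between 28.7 and 6305 CPM, at E14 between 13.6 and 7940 CPM and at E15 between 23.9 and 13302 CPM. AP.mid1 cells lay between 27.7 and 33930 CPM, between 10.5 and 12635 CPM and between 78.8 and 6999.7 CPM on these days. The lowest AP.mid2 cell of each day had 1626, 3113 and 3964 CPM, above the AP.late median of that day. The ranges of AP.late and AP.mid1 overlapped. At E15 the quartiles were 471 and 2309 CPM in AP.late and 1480 and 3528.5 CPM in AP.mid1. Cells are not replicates, and no test was run over them.

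**Figure D2:**
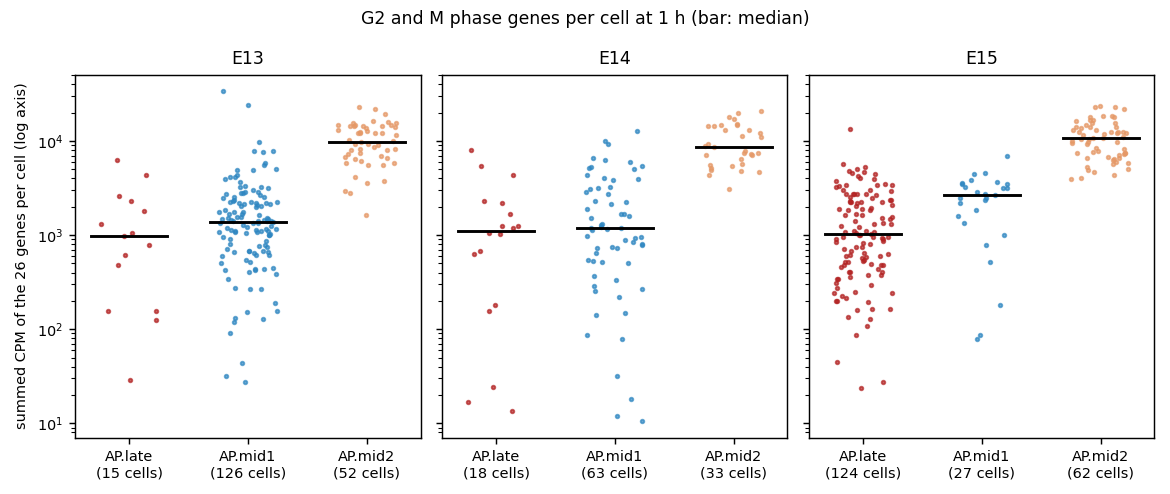
Summed level of the 26 genes of G2 and M phase in each cell at 1 h (CPM of the cell's own total, log axis), by injection day and cluster, with a bar at the median. AP.late medians of 979, 1113 and 1016 CPM lie near those of AP.mid1 at E13 and E14 and well under the AP.mid2 medians of 9797, 8725 and 10644 CPM.

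Among genes higher in AP.late, those with the smallest p belonged to no single list. Plce1 (chr19:38481034-38785105), a phospholipase C that acts downstream of Ras proteins, had 295, 419 and 188 CPM in AP.late and 126.5, 133.98 and 86.2 CPM in other AP, a log2 difference of 1.34 ± 0.31. Mpdz (chr4:81278499-81442897), a scaffold with many PDZ domains at cell junctions, had 270.4, 209 and 167.6 CPM in AP.late and 92.9, 79.6 and 69.5 CPM in other AP, a difference of 1.41 ± 0.34. Ccs (chr19:4825366-4839356), the chaperone that loads copper into superoxide dismutase, had 118.5, 151.3 and 96.3 CPM in AP.late and 31.4, 33.5 and 30.0 CPM in other AP. In these 3 genes the sums of the groups did not overlap. The long non-coding RNA Mir99ahg (chr16:77329328-77558428), the host transcript of a cluster of microRNAs, had 662, 555 and 454 CPM in AP.late and 304, 243 and 287 CPM in other AP. Ogt (chrX:101640011-101684351), the enzyme that attaches single N-acetylglucosamine sugars to nuclear and cytosolic proteins, had 309, 317 and 140.6 CPM in AP.late and 89.7, 131.2 and 74.6 CPM in other AP. The 2 groups of each were again separate, though the margin for Ogt at E15 was narrow.

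The other 3 of the 8 are transcriptional regulators. Atf4 (chr15:80255184-80257545), the transcription factor of the integrated stress response, had 639.7, 481 and 298 CPM in AP.late and 202, 154.9 and 226 CPM in other AP, a log2 difference of 1.24 ± 0.33. Fam208a (chr14:27423674-27483555), a subunit of the HUSH complex that silences repeated elements, had 259.9, 98.6 and 84.2 CPM in AP.late and 41.1, 18.5 and 46.5 CPM in other AP. Both were separate between groups and highest in the AP.late sum of E13, the smallest sum by cells. Neurog2 (chr3:127632733-127635636), the proneural factor, had 381, 406 and 134.7 CPM in AP.late and 188, 142.2 and 69.2 CPM in other AP, a log2 difference of 1.17 ± 0.30. It was higher in each day, but the AP.late sum of E15 lay below both earlier other AP sums. Adjusted p-values of these 8 genes lay between 0.509 and 0.737 in edgeR's quasi-likelihood test with Benjamini-Hochberg adjustment, far from the threshold, while DESeq2 and limma voom called all 8. The positive sign held in all 3 days and against AP.mid1 and AP.mid2 each alone, as the rule for naming them asked.

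Neurog2 led the markers of basal progenitors, and the position of AP.late in this list depended on which cluster it was set against. Of 14 listed genes 11 were tested, and 7 were higher in AP.late in each day and 0 lower, against 13.2% and 17.1% of all genes. At an unadjusted p under 0.05, 4 were higher, against 2.05% of all genes. The median log2 difference was 0.49. DESeq2 called 2 of the 11 higher, against 0.449% of all genes. Against AP.mid2 alone, 9 of the 11 were higher at an unadjusted p under 0.05, against 2.63% of all genes, and the median was 2.44. Against AP.mid1 alone 0 of 11 were, against 2.46% of all genes, and the median was -0.15. The 14 genes summed to 1967, 1763 and 1205 CPM in AP.late, to 1590.5, 1840 and 1529 CPM in AP.mid1 and to 437, 341 and 377 CPM in AP.mid2. AP.late and AP.mid1 stood at a like level, and AP.mid2 well below both.

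Insm1, a zinc finger factor needed to form basal progenitors, had 153.4, 176 and 121.4 CPM in AP.late and 70.2, 71.6 and 52.6 CPM in other AP, with no overlap. Its log2 difference was 0.53 against AP.mid1 and 2.65 against AP.mid2. Hes6, a Hes family factor that favours neuronal differentiation, had 299, 177 and 198 CPM in AP.late and 155.7, 136.9 and 49.5 CPM in other AP, and differed by 0.35 from AP.mid1 and 3.22 from AP.mid2. Eomes, the transcription factor that marks basal progenitors, had 164.97, 81.1 and 116.9 CPM in AP.late and 91.004, 135.6 and 81.3 CPM in other AP, so the groups overlapped. Its log2 difference was 0.23 ± 0.46 against other AP, -0.57 against AP.mid1 and 2.35 against AP.mid2. Markers of young neurons did not follow, with a median of 0.03 over the 10 members tested. In each day 3 of these markers were lower and 0 higher, against 17.1% and 13.2% of all genes. Their median was -0.76 against AP.mid1 and 0.55 against AP.mid2.

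Genes of ribosomal proteins were lower in AP.late mainly where it was set against AP.mid1. Those of the respiratory chain had a more negative median against AP.mid1 than against AP.mid2. The 40 ribosomal protein genes had a median log2 difference of -0.36 against other AP. Of them 1 was lower in each day, against 17.1% of all genes, and 2 were lower at an unadjusted p under 0.05, against 3.74%. Against AP.mid1, 35 of the 40 were lower at an unadjusted p under 0.05, against 4.58% of all genes, and the median was -0.68. Against AP.mid2 0 were, against 4.36% of all genes, and the median was -0.07. Rps4x, a protein of the small ribosomal subunit, had 2358, 2149 and 2971 CPM in AP.late against 4760, 4205 and 4493 CPM in AP.mid1, with no overlap. Against other AP, at 4485, 3684 and 2916 CPM, the groups overlapped. Ribosomal protein genes have many processed copies in the genome, and reads may be shared with them.

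The 24 nuclear genes of the respiratory chain had a median of -0.56, with 9 lower and 2 higher in each day, against 17.1% and 13.2% of all genes. At an unadjusted p under 0.05, 5 were lower, against 3.74% of all genes. Against AP.mid1 12 of the 24 were lower at that p, against 4.58% of all genes, with a median of -0.72. Against AP.mid2 5 of the 24 were, against 4.36% of all genes, with a median of -0.39. Sdhb, the iron-sulphur subunit of succinate dehydrogenase, had 98.6, 109.5 and 402 CPM in AP.late and 415, 447 and 426 CPM in other AP, and Cox7a2, a subunit of cytochrome c oxidase, had 318, 183 and 499 CPM in AP.late and 736, 655 and 582 CPM in other AP. Both were lower in AP.late without overlap, and the E15 sums were close together. The 10 mitochondrially encoded genes tested had a median of -0.31, with 5 lower and 0 higher in each day. Summed over that list, AP.late had 14265, 12009 and 15398 CPM and other AP 19522, 17014 and 15159 CPM, so at E15 the 2 were alike. Numbers of reads per cell and mitochondrial shares of the groups are given above. The settings tried included leaving out shallow cells and cells rich in mitochondrial reads. Over all settings the median ran from -0.82 to -0.28 for the nuclear genes and from -0.63 to -0.12 for the mitochondrially encoded ones. Beyond these settings, the part of read number and mitochondrial share in these values was not tested.

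The list of S phase genes also had a negative median against other AP, of smaller size than that of G2 and M phase. Of 21 tested, 6 were lower and 0 higher in each day, against 17.1% of all genes lower and 13.2% higher. At an unadjusted p under 0.05, 5 were lower, against 3.74% of all genes, and the median was -0.31. It was -0.71 against AP.mid1 alone and -0.26 against AP.mid2 alone. The 24 genes of the list summed to 2880, 1172 and 1101.5 CPM in AP.late and 2475, 1940.5 and 1736 CPM in other AP. By this sum AP.late was thus the higher at E13 and the lower at E14 and E15. Uhrf1, which guides maintenance methylation of newly made DNA, had 33.2, 30.9 and 32.5 CPM in AP.late and 104.2, 118.8 and 138.6 CPM in other AP, a log2 difference of -1.89 ± 0.48. Hells, a chromatin remodeller of replicating cells, had 88.9, 14.5 and 40.2 CPM in AP.late and 166.3, 110.8 and 96.1 CPM in other AP. For both genes the groups were separate. Mcm5, a subunit of the replicative helicase, had 109.4, 107.8 and 73.6 CPM in AP.late and 160.8, 85.1 and 80.9 CPM in other AP, which overlapped. The 13 regulators of G1 had a median of -0.27. In that list Ccnd1, cyclin D1, had 63.7, 83.9 and 45.5 CPM in AP.late and 114.6, 153.5 and 99.3 CPM in other AP, and Ccnd2, cyclin D2, had 2366, 1365 and 1106 CPM in AP.late and 1585, 1176 and 906 CPM in other AP. Ccnd1 was lower without overlap and Ccnd2 was higher in each day, and neither passed.

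Signalling lists lay near the median of all genes or somewhat above it. The hedgehog list had the highest median, 0.60 over 8 genes tested, with 4 higher and 0 lower in each day, against 13.2% of all genes higher and 17.1% lower. At an unadjusted p under 0.05, 2 were higher, against 2.05% of all genes. Its medians were 0.73 against AP.mid1 and 0.51 against AP.mid2. Boc and Cdon, co-receptors of sonic hedgehog, were higher in AP.late without overlap, Boc with 275, 355 and 165.8 CPM in AP.late and 132.9, 129.9 and 136.3 CPM in other AP. Cdon had 916, 727 and 554 CPM in AP.late and 478, 537 and 413 CPM in other AP. Smo, the signal transducer of the pathway, had 401, 178 and 207 CPM in AP.late and 179.9, 151.5 and 131.1 CPM in other AP, and was higher in each day with an overlap. The medians were 0.38 for 15 Wnt pathway genes, 0.12 for 15 Notch pathway genes, 0.17 for 16 Hippo pathway genes, 0.17 for 8 genes of BMP signalling and Id factors, and 0.03 for 9 genes of FGF signalling. Among Notch genes, Jag1, a ligand, had 115.1, 41.4 and 11.3 CPM in AP.late and 15.4, 4.65 and 5.01 CPM in other AP. It was higher in each day, and its AP.late sum of E15 lay below the other AP sum of E13. Hes5, a Notch target, had 10.2, 7.02 and 15.4 CPM in AP.late and 32.7, 30.6 and 31.1 CPM in other AP, with an unadjusted p of 0.141 in edgeR.

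Transcription factors of the Sox and POU families had a median of 0.36 over 14 genes, and factors of cortical patterning 0.38 over 14. Sox4, a factor of neuronal commitment, had 692, 790.5 and 535 CPM in AP.late and 402, 474 and 392 CPM in other AP. Sox21, a Sox repressor of progenitors, had 239, 245 and 130.4 CPM in AP.late and 123.6, 82.1 and 81.96 CPM in other AP. Both were higher in AP.late without overlap, and so was Sox2, a factor that keeps progenitors undifferentiated, with 231, 303 and 158.6 CPM in AP.late and 143.2, 127.01 and 156.1 CPM in other AP. Their unadjusted p-values in edgeR were 0.0207, 0.0185 and 0.0998.

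In glycolysis and hypoxia genes the median was 0.32 over 18 tested, and 9 were higher and 0 lower in each day, against 13.2% and 17.1% of all genes. The median was 0.13 against AP.mid1 alone and 0.58 against AP.mid2 alone. At an unadjusted p under 0.05, 6 were higher against AP.mid2, against 2.63% of all genes. Against AP.mid1 0 were higher and 1 lower at that p, against 2.46% and 4.58% of all genes. Pfkl, a phosphofructokinase, had 121.2, 99.6 and 52.7 CPM in AP.late and 48.2, 46.8 and 22.5 CPM in other AP, with no overlap, and Ldha, lactate dehydrogenase A, had 978, 1075 and 1214 CPM in AP.late and 1129, 1003 and 889 CPM in other AP, with overlap. The 8 genes of Polycomb repressive complex 2 had a median of -0.25. Ezh2, its methyltransferase, had 234, 254 and 206 CPM in AP.late and 324, 282 and 346 CPM in other AP, without overlap, a log2 difference of -0.45 ± 0.28 and an unadjusted p of 0.146 in edgeR. The 8 genes of DNA methylation had a median of 0.25, and Dnmt3a, a de novo methyltransferase, had 399.8, 168.2 and 173 CPM in AP.late and 155.02, 149.5 and 133.8 CPM in other AP, higher without overlap. Chromatin high mobility and remodelling genes had a median of -0.02 over 16, cholesterol synthesis 0.09 over 19, fatty acid handling -0.10 over 18, amino acid, ion and water transport -0.06 over 14, extracellular matrix and integrins -0.08 over 12, cadherins and junctions 0.23 over 13, and axon guidance 0.23 over 18. Immediate early and dissociation stress genes had a median of 0.18 over 14, with 4 higher and 0 lower in each day, against 13.2% and 17.1% of all genes. They summed to 2851, 3457.5 and 2602 CPM in AP.late and 2595, 2918 and 2641 CPM in other AP. At an unadjusted p under 0.05, 2 of the 14 were higher in AP.late, against 2.05% of all genes, namely Egr1, an immediate early transcription factor, and Hspa1b, an inducible heat shock protein. Egr1 had 19.7, 167.9 and 26.9 CPM in AP.late and 1.62, 15.5 and 24.1 CPM in other AP, a log2 difference of 2.50 ± 0.97. Hspa1b had 114.96, 81.5 and 3.79 CPM in AP.late and 0.95, 11.4 and 1.78 CPM in other AP, a log2 difference of 3.38 ± 1.32. Both were higher in AP.late on each day, least so at E15, the day with the most AP.late cells, and the groups overlapped. DESeq2 and limma voom each called Hspa1b and not Egr1. The part of dissociation stress in the other values was not tested. The metallothioneins Mt1 and Mt2, which bind zinc and copper, overlapped between groups with log2 differences of -0.33 ± 0.27 and -0.18 ± 0.28, and Mt3, at no more than 14.9 CPM, was not tested.

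**Figure D3:**
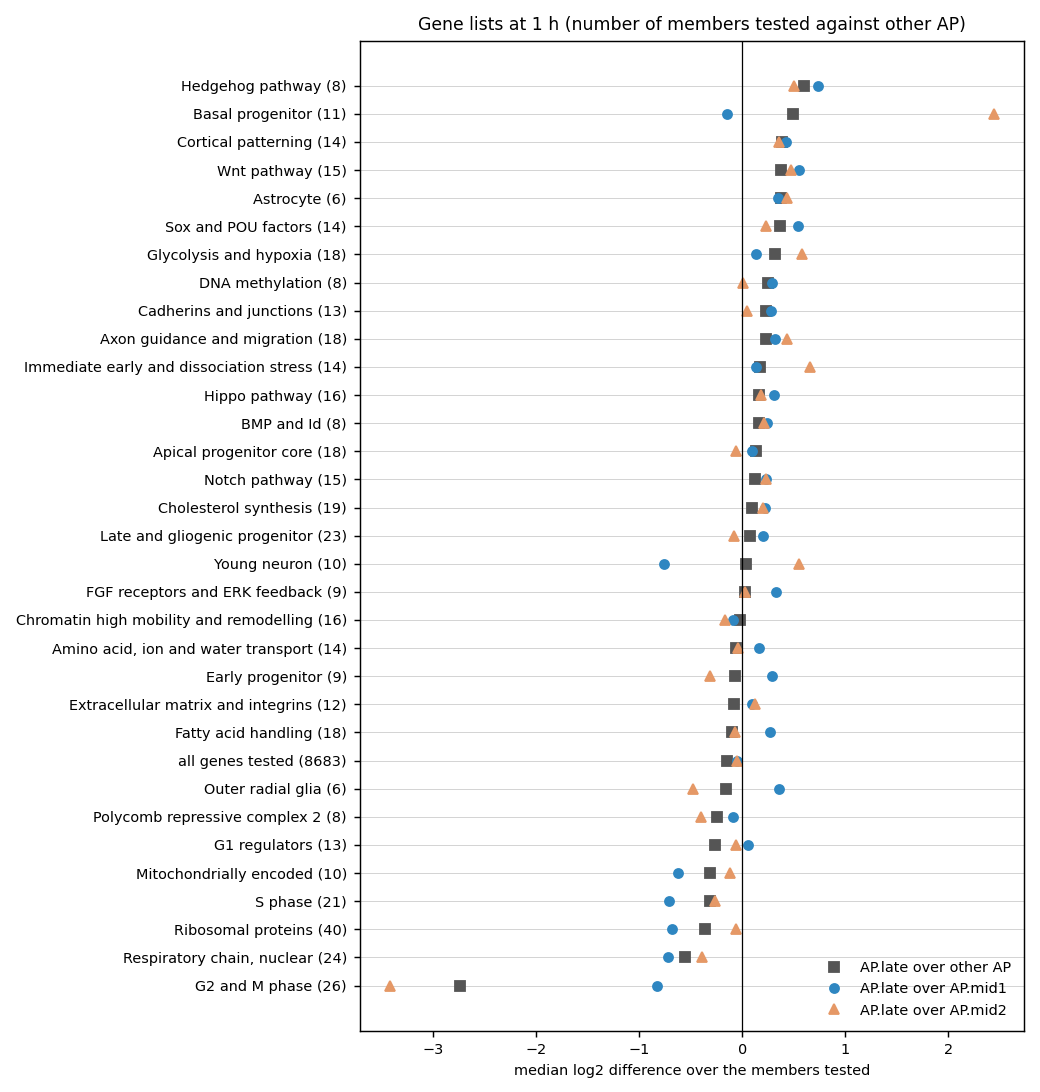
Median log2 difference at 1 h over the members tested of each gene list, for AP.late over other AP (squares), over AP.mid1 (circles) and over AP.mid2 (triangles), with the number of members tested against other AP in brackets. The list of G2 and M phase lies lowest at -2.74, while basal progenitor markers lie at 2.44 against AP.mid2 and -0.15 against AP.mid1.

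Genes known for a high level in late progenitors had a larger median log2 difference between injection days than between clusters, and the difference of the medians was not tested. The 23 tested members of the late and gliogenic list had a median log2 difference of 0.07 between AP.late and other AP within a day. In each day 4 were higher and 2 lower, against 13.2% and 17.1% of all genes. Between E15 and E13, within cluster class, their median was 0.67, and 9 were higher and 0 lower at an unadjusted p under 0.05. Among all genes 1.41% were higher and 0.864% lower by day at that p, and none passed the adjusted threshold in edgeR (0%, lowest adjusted p 0.214). DESeq2 called 47 genes higher at E15 (0.541%), 7 of them in this list, and 10 lower (0.115%). The median over all genes was 0.02 for the day. Both estimates come from the same 6 sums. A cluster class is not a single cluster, as AP.mid2 held 52 of 178 other AP cells at E13 and 62 of 89 at E15. The difference by day thus also holds this change of clusters within other AP. The fit by day was repeated with AP.mid1 alone and AP.mid2 alone as other AP, but for counts of calls only. The part of this change in the list median was not tested.

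Fabp7, the brain lipid-binding protein of radial glia, had 385, 599 and 1822 CPM in AP.late and 719.9, 1206 and 2379 CPM in other AP at E13, E14 and E15. Its sums followed the order of days in both groups and were lower in AP.late on every day, with a log2 difference of 2.00 ± 0.27 for E15 over E13 and -0.76 ± 0.22 for AP.late over other AP. Zbtb20, a zinc finger factor of late progenitors and astrocytes, had 129.2, 520.3 and 754 CPM in AP.late and 213, 324 and 646 CPM in other AP, a difference of 2.02 ± 0.40 by day and 0.07 ± 0.32 by cluster. Mfge8, a secreted bridge protein for phagocytosis, had 89.2, 289 and 383 CPM in AP.late and 30.8, 178 and 389 CPM in other AP, a difference of 2.88 ± 0.48 by day and 0.74 ± 0.37 by cluster. All 3 had their lowest sums at E13 in both groups. Apoe, a lipid carrier, also differed by cluster, with 21.6, 159.9 and 137.8 CPM in AP.late and 5.54, 15.0 and 66.1 CPM in other AP. It was higher in AP.late on each day, by 2.14 ± 0.64 on the log2 scale with an unadjusted p of 0.01, and by 3.22 ± 0.79 for E15 over E13. DESeq2 called these 4 genes by day. Ncan, the proteoglycan neurocan, had the larger difference by cluster, 0.86 ± 0.45 against 0.27 ± 0.55 by day, with 274, 216 and 159.9 CPM in AP.late and 71.4, 124.2 and 179.2 CPM in other AP.

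For the other stage markers followed here the groups overlapped. Sox9, a factor of radial glia and astrocytes, had 325, 265 and 165.3 CPM in AP.late and 208, 226 and 186 CPM in other AP, a log2 difference of 0.24 ± 0.31. Hopx, a marker of outer radial glia known from human cortex, had 0.476, 12.2 and 71.1 CPM in AP.late and 16.3, 13.0 and 100.0 CPM in other AP, and differed by 4.04 ± 1.44 between days and -1.49 ± 1.16 between groups. Tnc, an extracellular matrix protein, had 0, 1.05 and 48.1 CPM in AP.late and 0.106, 5.54 and 98.6 CPM in other AP and was not tested. For Hopx and Tnc each group was highest at E15 and AP.late lay below other AP in every day. Hmga2, a chromatin protein of early progenitors, had 91.8, 28.8 and 15.3 CPM in AP.late and 71.6, 29.4 and 52.1 CPM in other AP, with overlap. The 9 early progenitor genes tested had a median of -0.07 by cluster and -0.59 by day, and outer radial glia markers -0.16 and 1.59 over 6 tested. Astrocyte markers had a median of 0.37 by cluster and 0.98 by day over 6 tested.

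**Figure D4:**
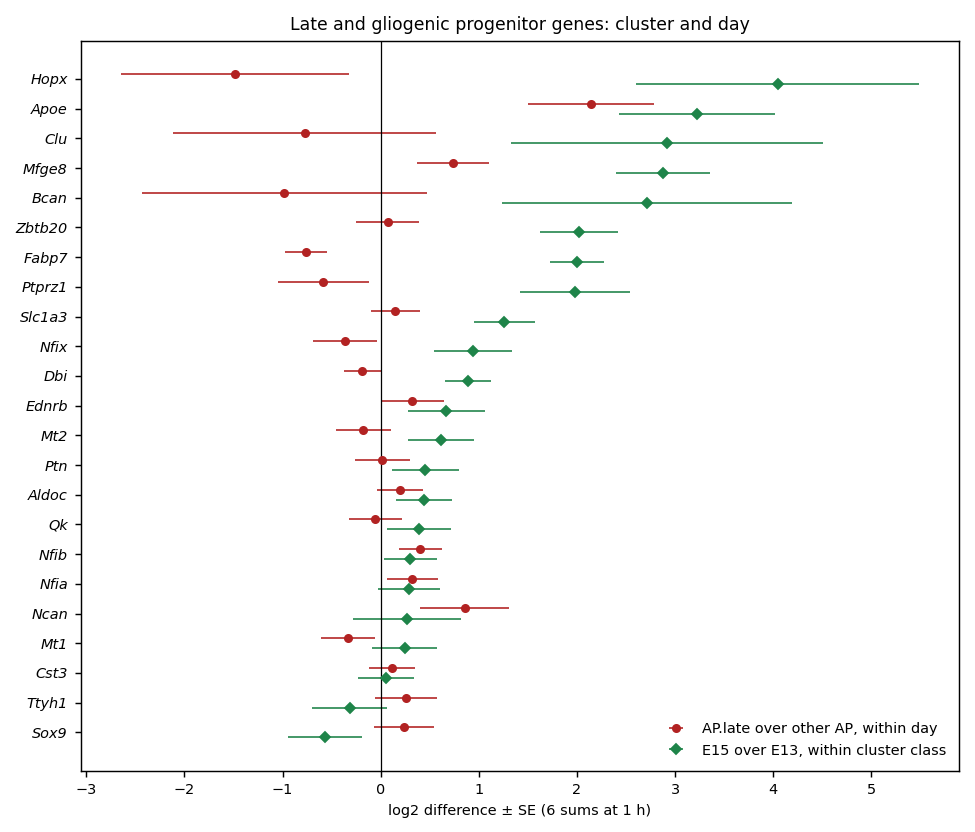
Log2 difference ± SE at 1 h for the 23 tested late and gliogenic genes, for AP.late over other AP within day (circles) and for E15 over E13 within cluster class (diamonds). The day values include 2.00 for Fabp7 and 2.88 for Mfge8, where the cluster values are -0.76 and 0.74. Apoe has a larger day value than both and a cluster value of 2.14.

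The sex make-up of the sums also moved with the day. Xist, the RNA of the inactive X chromosome, had 522, 248 and 117.9 CPM in AP.late and 676, 445 and 83.5 CPM in other AP, and the Y-linked Ddx3y had 0, 39.7 and 104.6 CPM in AP.late and 0.106, 46.9 and 92.1 CPM in other AP. In both groups Xist was highest and Ddx3y lowest at E13, and at E14 Xist was lower in AP.late than in other AP. The part of the sex make-up in the differences by day was not tested.

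The same clusters occurred 24 h after injection. The authors' cluster labels of those cells rest on their own expression too, so the values at 24 h are a description and no independent support for those at 1 h. There AP.late held 7, 19 and 37 cells with 4.32, 11.7 and 21.0 M counts, and other AP 12, 13 and 7 cells with 4.13, 8.44 and 3.48 M counts. Of 8291 genes tested, none passed the adjusted threshold in edgeR (0%, lowest adjusted p 0.0944), and 281 had an unadjusted p under 0.05 (3.39%), with 1.4% of genes higher in AP.late and 1.99% lower. DESeq2 called 130 higher (1.57%) and 140 lower (1.69%), and limma voom called 17 higher and 86 lower (1.24% in all). In each day 1213 genes were higher (14.6%) and 1113 lower (13.4%), and 492 (5.93%) and 465 (5.61%) did so without overlap. The coefficient of variation was 94.6%, above that at 1 h.

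The genes of G2 and M phase lay lower in AP.late at 24 h too. Of the 26, 25 were lower in each day, DESeq2 called 24, and the median log2 difference was -5.42. Tpx2, which nucleates spindle microtubules, had 8.72, 3.09 and 53.1 CPM in AP.late and 375, 518 and 1266 CPM in other AP at 24 h, a difference of -5.74 ± 0.64. Pttg1 had 106.95, 48.1 and 149.5 CPM in AP.late and 1072, 1284 and 1042 CPM in other AP, and Arl6ip1 86.1, 202 and 356 CPM in AP.late and 639.8, 1370 and 1717 CPM in other AP. No sums of these 3 genes overlapped. Ccnb1 had 5.51, 0.0836 and 12.9 CPM in AP.late and 347, 528 and 605 CPM in other AP, at which level the fitted difference of -7.07 ± 1.26 depends on few reads. Per cell, the 26 genes summed to a median of 369, 226 and 536 CPM in AP.late, 10845, 8964 and 9641 CPM in AP.mid2, and 358 and 570 CPM at E13 and E14 in AP.mid1, of which there were 4 and 1 cells. At 24 h most other AP cells were thus AP.mid2 cells, and the other AP group was not of the same composition as at 1 h.

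The log2 difference of AP.late from other AP was larger in size at 24 h than at 1 h for most of these genes. A test of that change over both times (9854 genes) passed for no gene in edgeR (0%, lowest adjusted p 0.98). At an unadjusted p under 0.05, 1.2% of genes had a more negative difference at 24 h and 2.71% a more positive one. DESeq2 called 29 (0.294%) and 96 (0.974%), and among the 29 were 7 of the 26, namely Mki67, Ccna2, Bub1b, Plk1, Tpx2, Hmmr and Cdc20. The markers of basal progenitors had a median of 1.20 at 24 h over 11 tested, and the late and gliogenic list 0.07. The S phase list had a median of 0.21 at 24 h over 23 tested, where all genes had 0.10. Mpdz, Boc and Smo, higher in AP.late at 1 h, lay below other AP on each day at 24 h. Hmga2 had 0.23, 1.84 and 0.0935 CPM in AP.late at 24 h and 78.3, 49.9 and 66.2 CPM in other AP, with no overlap and an adjusted p of 0.74 in edgeR with Benjamini-Hochberg adjustment.

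**Figure D5:**
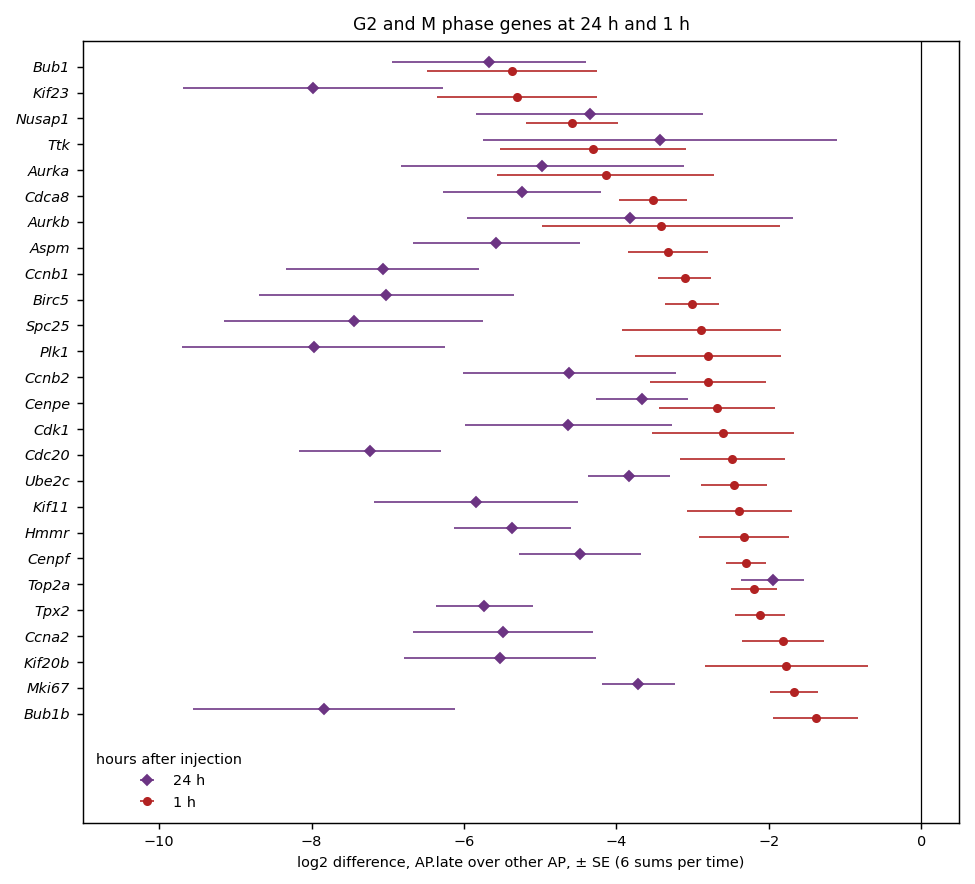
Log2 difference ± SE of AP.late over other AP for the 26 genes of G2 and M phase, at 24 h (diamonds) and at 1 h (circles). All lie left of 0, and the median is -5.42 at 24 h and -2.74 at 1 h.

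The share of apical progenitors that fell in AP.late was higher on later days. At 1 h it was 15 of 201 cells at E13 (7.46%, 95% Clopper-Pearson interval 4.24 to 12.0%), 18 of 120 at E14 (15.0%, 9.14 to 22.7%) and 58.2% of 213 at E15 (51.3 to 64.9%), with AP.early in the denominator. At 24 h it was 7 of 22 (31.8%, 13.9 to 54.9%), 19 of 32 (59.4%, 40.6 to 76.3%) and 37 of 44 (84.1%, 69.9 to 93.4%). The intervals cover counting error only, each day is 1 sample, and the clusters were drawn from genes that include those which differ by day.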

How the data were processed

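The table that the authors deposited gives raw read counts of 16441 genes in 2756 cells, not normalized. Column totals matched the read number in the labels, with a lowest ratio of 0.987, and no 2 cells used here held identical values. The submitters' processing notes name GRCm38, TopHat2 2.0.13 and UMI-tools, and the counter, the annotation and the filters are not given in the sources used here. Per the labels' protocols, cells were captured on a C1 HT chip and cDNA was made with SMART-Seq v4. No doublet caller was run.

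Counts were summed per injection day and class and never tested over cells. Genes that reached 10 CPM in 3 or more of the 6 sums went into edgeR 4.0.16 (quasi-likelihood, TMM scaling) in R 4.3.3, with day as a block and Benjamini-Hochberg adjustment at 0.05. E15 over E13 came from the same fit. The change between 24 h and 1 h came from a fit of both times. CPM use TMM-scaled library sizes, and AP.mid1 and AP.mid2 use the factor of the day's other AP sum. The pairing comes from the shared injection day and run code. Deviations from class means correlated at 0.13, 0.065 and 0.126 within a day and at -0.097 to -0.009 between days. Because the labels name no separate animals, a p-value speaks only of the spread among the sums.

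Genes were to be named among those past the threshold. None passed, so 8 in each direction were taken by smallest p among genes with a mean of at least 50 CPM and the same sign in every day and against AP.mid1 and AP.mid2 alone, leaving out predicted, ribosomal protein and mitochondrially encoded genes. Up to 4 members per list by smallest p, 8 genes fixed by name and the metallothioneins were also eligible. Pax6, Vim, Mcm5, Hes5, Ldha, Mki67, Hmgb2, Tpx2, Kif20b, Aurkb, Xist, Ddx3y and the 22 calls against AP.mid2 were named with their values known. The members and the gene lists were chosen with earlier results of these data known. Results that need certain genes, the summed levels of interneuron and ventral progenitor markers among them, are not reported here. Promoters and gene positions are from RefSeq, build GRCm38.p6. The fits were tested on simulated counts. Other settings tried were DESeq2 1.42.0, its size factors, limma voom 3.58.1 with quality weights, other filters, equal weight of cells, each day left out, each other cluster alone, AP.early kept, cells under 100000 counts or over 10% mitochondrial reads left out, and no block. Python 3.11.15 with pandas 2.3.3, numpy 2.4.6, scipy 1.17.1 and matplotlib 3.10.9 made tables, intervals and plots.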

Additional observations from a re-analysis of the deposited data

Results flagged for a closer look

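For 11 of the genes named or listed, AP.late differed from other AP in one direction on every day at 24 h and in the opposite direction on every day at 1 h. Of all genes, 13.2% were higher and 17.1% lower on every day at 1 h, and 14.6% and 13.4% at 24 h. The share of all genes that changed direction in this way was not counted, so the 11 cannot be set against it. The test of that change between times gave an adjusted p of 0.98 for each of them in edgeR's quasi-likelihood test with Benjamini-Hochberg adjustment, so none passed. Mpdz, the junction scaffold, had 83.3, 40.8 and 59.6 CPM in AP.late and 176, 63.6 and 271 CPM in other AP at 24 h, where at 1 h AP.late was the higher. The log2 difference of AP.late changed by -2.72 from 1 h to 24 h, with an unadjusted p of 0.00184. It changed by -1.45 for Smo and -3.17 for Boc, both of the hedgehog pathway, by -0.84 for Ctnnb1, beta-catenin, by -2.08 for Fat1, an atypical cadherin, by -1.62 for Itga6, an integrin subunit, by -1.44 for Mycn, a Myc family factor, and by -6.34 for Dmrt3, a patterning factor with at most 0.23 CPM in AP.late at 24 h. In these 8 genes AP.late lay below other AP at 24 h and above it at 1 h. The order was the opposite for Stmn2, a tubulin-binding protein of neurons (5.08), for Mvk, mevalonate kinase (7.03), and for Panx1, a pannexin channel (4.99). Stmn2 had 175, 23.6 and 26.4 CPM in AP.late and 27.4, 12.8 and 2.62 CPM in other AP at 24 h. The make-up of other AP differed between the times, with AP.mid2 holding 8 of its 12, 12 of its 13 and 7 of its 7 cells at E13, E14 and E15 at 24 h, and its part in these changes was not tested.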

How the results depend on the processing

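Between AP.late and other AP at 1 h, edgeR with TMM scaling called 0 genes, and so it did with DESeq2's size factors, with only genes detected in 10% of cells, with cells weighted equally, with AP.mid1 alone, with AP.early kept, without shallow cells or cells rich in mitochondrial reads, and with any 1 day left out. Without the replicate block, that is with the paired days ignored, the count was 0 too. DESeq2 called 39 genes higher and 202 lower. All lower were 11 calls with no filter on low counts, 22 against AP.mid2 alone and, in an alternative added after seeing the data, 17 among genes with a mean of at least 50 CPM. Limma voom with quality weights, also added then, called 72 higher and 77 lower. Of all calls, those in the list of G2 and M phase were 23 with DESeq2, 6 with no filter, 11 against AP.mid2, 9 at 50 CPM and 20 with voom. At 24 h edgeR called 0, DESeq2 130 higher and 140 lower, and limma voom 17 higher and 86 lower. Lower there were also 1 gene with DESeq2's size factors (Arl6ip1), 9 with no filter, and 0 to 18 with a day left out, being 7 without E13 and 18 without E14. For the change between times edgeR called 0, and DESeq2 96 with a more positive and 29 with a more negative difference. For E15 over E13 edgeR called 0, DESeq2 47 higher and 10 lower, and 1 gene was lower with no filter and 1 with the detection filter. The cause of these moves was not tested. Of 1809 values of the other named genes under the alternatives, 23 changed sign. Of 255 values of the 16 genes named by p, 0 did. The rule that named these 16 asked for the same sign in every day and against each other cluster alone. Their count was thus largely fixed in advance and says little about stability. Of 528 list medians under the alternatives, 68 moved by more than the spread between days. The G2 and M median ran between -3.42 against AP.mid2 and -0.83 against AP.mid1. The median of all genes was -0.15, and it was -0.08 with DESeq2's size factors, -0.36 with no filter and 0.07 in limma voom, so small list medians have no firm sign. The 15 and 18 AP.late cells at E13 and E14 limit every comparison at 1 h, as do sums of 7 cells at 24 h.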
